A study of Mus musculus with 6 samples.

Results

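The non-collagen matrix proteins followed here are the products of 46 genes, a named set of glycoproteins, laminins, proteoglycans and the enzymes that crosslink or process them, read in mouse liver after repeated injection of tumour cell vesicles. The set was a list of gene symbols, and a gene's probes were those that carried its symbol as their gene name on the array. All 46 symbols were on the array, out of 37074 gene names, with 103 of 56605 probes. Of these genes 42 had a probe whose signal stood well above background on 3 or more of the 6 arrays and were tested, out of 19446 genes tested in all. The 4 others, Tnc, Fbn2, Mfap5 and Aspn, were too dim to test.

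All mice were nude, an athymic strain without mature T cells, and 1 liver was hybridised to each Agilent 1-colour array. The sEV group (3 livers) came from mice given small extracellular vesicles, membrane particles released by cells, purified from the human colorectal cancer line SW620, by tail vein, with 20 µg per injection and 10 injections over 21 days. The control group (3 livers) came from mice given sterile buffer (PBS) 10 times over the same 21 days. Each group had 5 mice, and age and sex are not given in the sources used here. The design text of the study names matrix remodelling among the changes seen on these same arrays, so the matrix genes are not independent evidence of a direction.

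The extracellular matrix is the protein and sugar scaffold outside cells. Elastin is laid on microfibrils of fibrillin to make elastic fibres, laminins and nidogens form sheets that bind cells, small leucine-rich proteoglycans coat collagen fibrils, and lysyl oxidases link collagen and elastin chains. In liver much of this matrix is made by stellate cells and portal fibroblasts, while hepatocytes secrete fibronectin and vitronectin into plasma.

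Signals are given as normalised log2 signal, the log2 of the processed signal minus that of the array's 75th percentile, so that a value of 1 is a signal double that percentile. Levels of different probes were not set against each other. Between 49.9% and 54.7% of the 59305 spots that are not controls were well above background on each array, and all arrays lay on 1 slide. The 3 control livers and sEV liver 1 were in slide row 1 and sEV livers 2 and 3 in row 2, so that slide row and treatment can be told apart only through sEV liver 1. Every fold given below with slide row as a block is therefore that of sEV liver 1 alone against the control mean. The same fold is found within slide row 1 alone. All 8 hepatocyte marker genes were measured. Correlations across genes, which are not independent replicates, were 0.991 to 0.995 within groups and 0.975 to 0.984 between them. Each liver is 1 mouse, precision is limited by the number of arrays, and p = 0.1 is the smallest value an exact test could reach with 3 livers a group.

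A minority of matrix protein genes changed in sEV livers, and nearly all that changed were lower. With limma and Benjamini-Hochberg adjustment over all 19446 genes at a threshold of 0.05, 14 of the 42 tested matrix genes fell, 1 rose and 27 did not pass. That is 35.7% called, against a background of 16.9% of all genes, of which 8.11% fell and 8.82% rose. The median log2 fold change was -0.44 over the 42 genes and 0.02 over all genes tested. The fold was negative for 34 genes and positive for 8. In 17 matrix genes every sEV liver was below every control liver, and in 2 genes every sEV liver was above, where 18.6% and 22.2% of all genes did so. A fall of at least 2-fold that passed was found in 6 of the 42, Eln, Sparc, Postn, Mfap2, Loxl2 and Thbs2, against 2.57% of all genes. On the probes used, the signals of Eln and Lox were too dim on all 3 sEV arrays to stand well above background. Both genes entered the test through the control arrays alone. Among the 40 matrix genes measured in both groups, 13 fell, 5 of them at least 2-fold, against 7.55% and 2.01% of the 19229 genes so measured. In 15 of the 40 every sEV liver was below every control, beside 18.6% of all 19446 genes tested. The share of such genes among the 19229 was not taken. With Eln and Lox at the bounds given below, the median over the 42 was -0.43. In whole liver, fewer cells of a type and less RNA per cell cannot be told apart.

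The genes fell into 5 classes by their known role. Of the crosslinking and processing proteins 2 of 4 fell (median log2 fold change -1.15 with Lox at its measured fold and -0.81 with Lox at its bound), and of the laminins and nidogens 3 of 8 (median -0.66). Among the elastic fibre and microfibril glycoproteins 4 of 12 tested genes fell, Eln included (median -0.47 with Eln at its measured fold or at its bound). In these 3 classes every tested gene had a negative fold change under the main processing. Among the proteoglycans 2 of 8 tested fell and 1 rose (median -0.32). Among the adhesive and matricellular glycoproteins 3 of 10 tested fell, with 5 folds negative and 5 positive (median -0.07). The classes were not tested against each other, and that last median turned positive under 4 other treatments of the data.

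**Figure D1:**
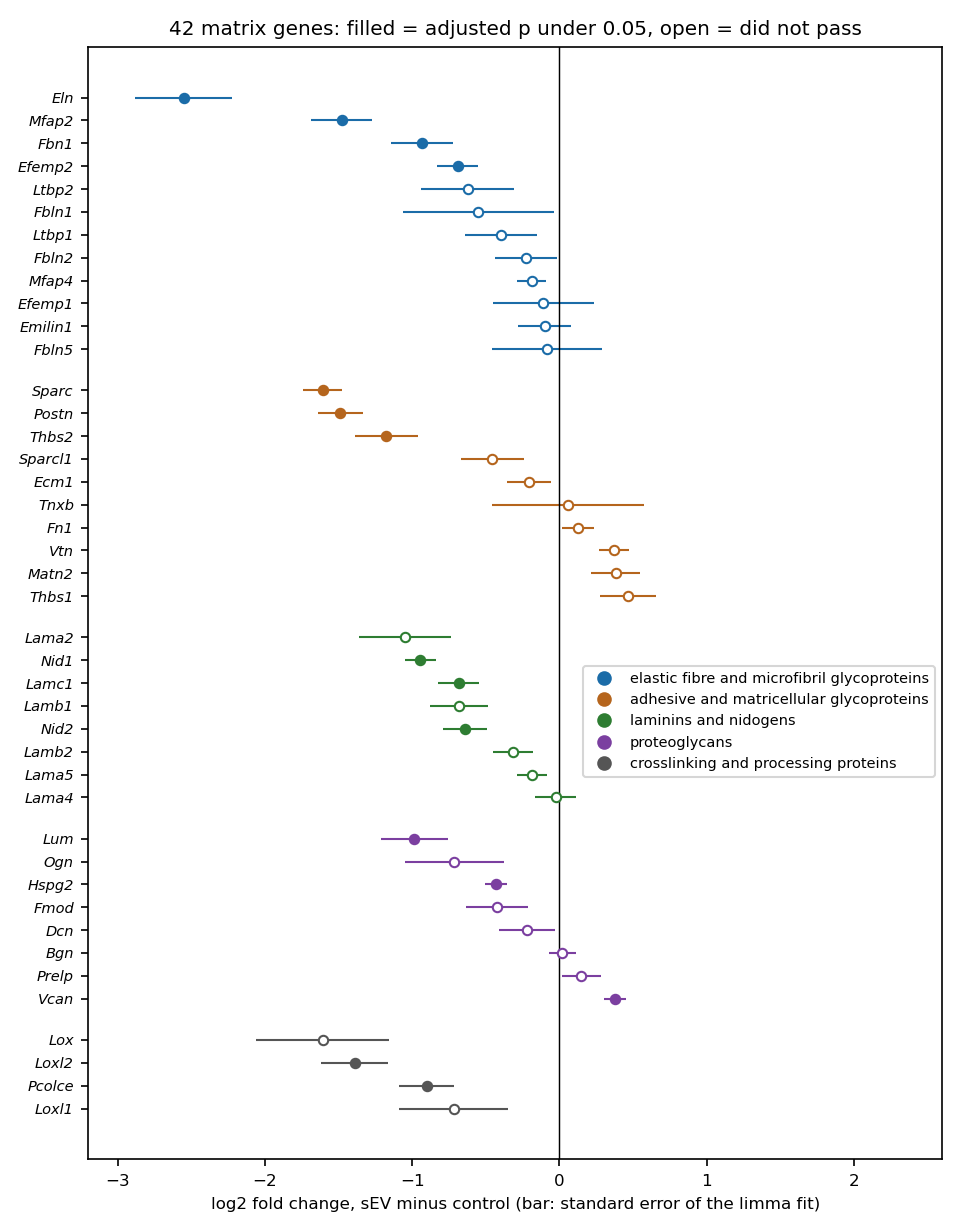
Each of the 42 tested matrix genes by class, with its log2 fold change (sEV minus control) on the horizontal axis and the standard error of the limma fit as a bar. Filled points passed at an adjusted p under 0.05. Of the 15 filled points 14 lie left of zero, from Eln at -2.55 to Hspg2 at -0.43, and Vcan at 0.38 lies right of it. Eln and Lox are drawn at measured folds, although their sEV signals on the probes used were not above background.

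Elastic fibres are built from elastin on a microfibril scaffold, with fibulins as adaptors. Eln, which encodes elastin, had log2 signals of -2.16, -2.25 and -1.81 in control livers 1 to 3 and -5.32, -4.58 and -3.99 in sEV livers 1 to 3. The groups were far apart, and no sEV liver gave a signal of the main probe well above background, while every control liver did. On this probe Eln was at least 4.45-fold lower (group means -2.07 and -4.63). The other kept Eln probe read a smaller fall, -1.97 as measured, so that the bound holds for the main probe only. Its limma fit (adjusted p = 0.00718) used sEV signals below the dimmest signal called well above background on each of those 3 arrays, so that it adds no size to this bound. For this bound each sEV array was given either its dimmest signal still called well above background or the probe's own signal, whichever was brighter, and the mean of these was set against the control mean. Under normexp background correction the fold change of Eln was -0.94, also past the threshold. That correction was run with an offset of 50 added to each signal, which shrinks the folds of dim probes, here and below.

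Mfap2, a microfibril-associated glycoprotein that binds fibrillin, read -1.33, -1.83 and -1.50 in controls and -3.11, -3.33 and -2.67 in sEV livers. All sEV values lay below all control values, and Mfap2 fell by 1.48 ± 0.21 (SE of the limma fit, 3 livers per group, here and below; adjusted p = 0.00884). With normexp correction that change was -0.81. Fbn1, fibrillin 1, the backbone of microfibrils, read -0.55, -1.23 and -1.35 in controls and -1.96, -2.05 and -1.92 in sEV livers. The sEV values sat close together, with control liver 1 the highest, and Fbn1 fell by 0.93 ± 0.21 (adjusted p = 0.0322 by limma). Efemp2, fibulin 4, which brings lysyl oxidase to elastin, read 1.45, 1.19 and 0.98 against 0.59, 0.38 and 0.59. The groups did not overlap, and Efemp2 fell by 0.69 ± 0.14 (adjusted p = 0.0243 by limma).

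The other 8 tested elastic fibre genes did not pass (adjusted p 0.224 to 0.896 by limma), and in each the groups overlapped. Ltbp2, a fibrillin-like binding protein, had a fold change of -0.62 ± 0.32. Leaving out 1 liver moved it between -0.37 (without sEV 2) and -0.997 (without sEV 3), and without sEV 3 it passed (adjusted p = 0.0198 by limma). In Ltbp2 sEV livers 1 and 2 were low at -1.63 and -1.87, whereas sEV liver 3, at -0.63, was above all controls. Fbln1, fibulin 1, showed the same spread, with -3.39 and -3.68 in sEV livers 1 and 2 and -1.81 in sEV liver 3 (fold change -0.55 ± 0.52). Ltbp1, which holds latent TGF-beta in the matrix, was at -0.40 ± 0.25, Fbln2, fibulin 2, at -0.23 ± 0.21 and Mfap4, a microfibril-associated protein, at -0.19 ± 0.10. Efemp1 (fibulin 3), Emilin1 (an elastin interface protein) and Fbln5 (fibulin 5) lay at -0.11, -0.10 and -0.08, and all 3 changed sign in at least 2 other treatments of the data. Fbn2, fibrillin 2, and Mfap5, another microfibril glycoprotein, were each well above background on 1 control array only.

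Leaving out single livers ended some of these calls. Eln and Mfap2 passed without any 1 of the 6 livers. Efemp2 did not pass without control 1 (adjusted p = 0.0576 by limma), control 2 (0.0703), sEV 2 (0.0691) or sEV 3 (0.0604). Fbn1 did not pass without control 2 (adjusted p = 0.0683 by limma), sEV 1 (0.0657), sEV 2 (0.0871) or sEV 3 (0.0774). With slide row as a block Eln passed (adjusted p = 0.0101 by limma), again on signals not above background, so that no fold is given, whereas Mfap2 (0.0646), Fbn1 (0.181) and Efemp2 (0.169) did not, at fold changes of -1.56, -0.92 and -0.62.

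Start-site sequences are shown for 4 genes that fell, so that the letters before genes that fell can be compared. RefSeq promoter entries (GRCm38.p6) were matched for 30 of the 46 genes and for 9 of the 14 that fell, and Eln, Loxl2, Lamc1, Lum and Nid2 were not among these. The 250 bases before each start site were searched on both strands for the GC box GGGCGG, the TATA box TATAAA, the AP-1 site TGANTCA, the SMAD element CAGAC and the CArG box. The GC box was found in 17 of the 30 genes and in 6 of the 9 that fell (Efemp2, Fbn1, Hspg2, Mfap2, Nid1 and Pcolce), against 35.4% of all 27025 genes with an entry. TATAAA was found in 7 of the 30 and in Postn and Thbs2 among those that fell, against 14.3% of all genes. TGANTCA (3 of the 30, against 7.82%) and the CArG box (1 of the 30, against 1.62%) were found in none of the 9. CAGAC was found in 20 of the 30 and 5 of the 9, against 45.8% of all genes. A match is a description of letters only, and these motif counts were not tested. Mfap2 has 2 windows, of which chr4:141010431-141010680 on the plus strand, the 1 with GC boxes, is printed 5′ to 3′ with its GC boxes in capitals, at 51 and 7 bases before the start site.
Mfap2: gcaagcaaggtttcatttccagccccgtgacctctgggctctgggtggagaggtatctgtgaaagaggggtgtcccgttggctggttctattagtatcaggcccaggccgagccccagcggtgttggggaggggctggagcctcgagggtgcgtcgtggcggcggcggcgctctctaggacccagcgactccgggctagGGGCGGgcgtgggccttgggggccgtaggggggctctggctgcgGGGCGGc

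Among the adhesive and matricellular glycoproteins, which link cells to matrix or tune that contact, 3 genes fell together. Sparc, a collagen-binding glycoprotein, had log2 signals of 6.997, 6.95 and 6.61 in control livers and 5.11, 5.36 and 5.27 in sEV livers. Every sEV liver was more than 1 log2 unit below every control liver, and Sparc fell by 1.61 ± 0.13 (adjusted p = 0.00176 by limma), the smallest adjusted p of the 42 genes. Postn, which encodes periostin, a matrix protein of activated fibroblasts, read 0.43, 0.04 and -0.10 in controls and -1.23, -1.41 and -1.45 in sEV livers. All sEV livers were low, and Postn fell by 1.49 ± 0.15 (adjusted p = 0.00395 by limma).

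Thbs2, thrombospondin 2, which binds matrix proteases and limits vessel growth, read -2.63, -3.46 and -2.996 in controls and -4.14, -4.37 and -4.10 in sEV livers. The groups did not overlap, but only 1 of the 3 sEV arrays measured Thbs2 well above background, against 3 of 3 controls. Thbs2 fell by 1.18 ± 0.21 (adjusted p = 0.0189 by limma). With normexp correction its fold change was -0.38, still past the threshold. Its call ended without control 3 (adjusted p = 0.0558 by limma), without sEV 2 (0.0545) and when slide row was blocked (0.134, fold change -1.11). Sparc and Postn passed without any 1 liver and with slide row as a block, where their fold changes were -1.75 and -1.35 (adjusted p = 0.0157 and 0.0426 by limma).

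The upstream windows of Postn and Sparc are printed because these genes had the smallest adjusted p of their class. Postn (chr3:54360857-54361106, plus strand, GRCm38.p6) holds TATAAA, in capitals, at 26 bases before the start site. Postn has another window (chr3:54359017-54359266) that holds none of the motifs put in capitals and is not printed. Sparc (chr11:55420081-55420330, minus strand) holds no GC box, TATA box, AP-1 site or CArG box, so nothing is capitalised. CAGAC was not put in capitals. Sparc holds it in the printed window, on the opposite strand, and Postn holds it only in the window that is not printed.
Postn: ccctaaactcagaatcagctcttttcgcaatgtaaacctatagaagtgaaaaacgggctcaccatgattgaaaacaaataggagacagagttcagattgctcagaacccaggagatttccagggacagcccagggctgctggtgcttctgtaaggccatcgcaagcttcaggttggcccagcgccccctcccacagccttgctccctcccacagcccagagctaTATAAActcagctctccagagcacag
Sparc: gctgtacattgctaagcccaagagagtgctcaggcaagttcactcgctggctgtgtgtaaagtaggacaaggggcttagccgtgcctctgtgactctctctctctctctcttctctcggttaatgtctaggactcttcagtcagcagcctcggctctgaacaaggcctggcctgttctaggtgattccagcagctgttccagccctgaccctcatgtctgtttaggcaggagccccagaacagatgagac

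The remaining adhesive genes did not pass. Vtn, vitronectin, a plasma adhesion protein of hepatocytes, read 8.50, 8.67 and 8.62 in controls and 8.82, 8.97 and 9.11 in sEV livers. Every sEV liver was above every control, but the change of 0.37 ± 0.10 just missed the threshold (adjusted p = 0.0577 by limma). It passed under normexp correction (adjusted p = 0.0295 by limma), with a filter of all 6 arrays (0.0463), a trended, robust variance (0.0266), array weights (0.0350) or without sEV 1 (0.0476). Under quantile normalization the fold of Vtn was 0.13 (adjusted p = 0.270 by limma), also 0.13 in the authors' deposited table (0.258), and 0.23 with slide row as a block (0.367). Fn1, fibronectin, also a hepatocyte product, was at 0.13 ± 0.11 with overlapping groups, and its 4 probes well above background had folds between 0.13 and 0.39. Under quantile normalization, and in the authors' value table, the fold of Fn1 was -0.10. Thbs1, thrombospondin 1, an activator of latent TGF-beta, was at 0.46 ± 0.19 (adjusted p = 0.145 by limma), opposite in sign to Thbs2, and sEV liver 1 overlapped the controls. The difference between Thbs1 and Thbs2 was not tested.

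Sparcl1, a relative of Sparc, was at -0.46 ± 0.21 (adjusted p = 0.190 by limma), with sEV liver 1 inside the control range. Ecm1, a secreted glycoprotein, was at -0.21 ± 0.15, with sEV livers 2 and 3 below the controls and sEV liver 1 above them, and with slide row as a block its fold was 0.10. Tnxb, tenascin X, was at 0.06 ± 0.52, with control liver 1 at 0.28 and the other controls at -1.29 and -1.42, so that leaving out 1 liver moved the fold between -0.25 and 0.60. Tnc, tenascin C, stood well above background on none of the arrays. Matn2, matrilin 2, had a fold of 0.38 ± 0.17 on its brightest probe, and its probes disagreed, as described with the probe sequences.

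Laminins are trimers of an alpha, a beta and a gamma chain, and nidogens join them to type IV collagen. Nid1, nidogen 1, read 1.44, 1.23 and 1.11 in controls and 0.28, 0.30 and 0.36 in sEV livers. The sEV livers were low and nearly alike (SD 0.04), and Nid1 fell by 0.94 ± 0.11 (adjusted p = 0.00463 by limma). Nid2, nidogen 2, read -0.66, -0.87 and -1.02 against -1.74, -1.47 and -1.27. The groups did not overlap, and Nid2 fell by 0.64 ± 0.15 (adjusted p = 0.0359 by limma), the value just inside the threshold. Lamc1, the gamma 1 chain, read 1.30, 0.92 and 1.01 against 0.49, 0.20 and 0.48. All sEV livers were lower, and Lamc1 fell by 0.68 ± 0.14 (adjusted p = 0.0238 by limma).

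Of the remaining laminin chains, 2 had groups that did not overlap and yet did not pass. Lamb1, the beta 1 chain, read 1.23, 0.81 and 0.54 in controls and 0.38, -0.04 and 0.19 in sEV livers, a fold of -0.68 ± 0.20 (adjusted p = 0.0645 by limma). Lama2, the alpha 2 chain, read 0.04, -0.98 and -0.87 against -1.34, -2.04 and -1.58, a fold of -1.05 ± 0.31 (adjusted p = 0.0670 by limma). In Lama2 control liver 1 stood well above the other controls. Lamb1 and Lama2 both passed under normexp correction (adjusted p = 0.0348 and 0.0478 by limma) and median scaling (0.0467 and 0.0476). Lamb2, the beta 2 chain, was at -0.32 ± 0.14, Lama5, the alpha 5 chain of many epithelial and vascular laminins, at -0.19 ± 0.10, and Lama4, the alpha 4 chain of vessels, at -0.03 ± 0.14, all with overlapping groups. The fold of Lama4 turned positive under normexp correction (0.05) and with array weights (0.09).

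Nid1 passed without any 1 liver and with slide row as a block (fold -0.98, adjusted p = 0.0422 by limma). Lamc1 did not pass without control 1 (adjusted p = 0.0611 by limma), control 3 (0.0609), sEV 2 (0.0624) or sEV 3 (0.0561). Nid2 passed without sEV 3 but not without control 1 (adjusted p = 0.105 by limma), control 2 (0.0923), control 3 (0.0608), sEV 1 (0.0643) or sEV 2 (0.0859). With slide row as a block the fold changes of Lamc1 and Nid2 were -0.58 (adjusted p = 0.174 by limma) and -0.89 (0.0643). The window before the Nid1 start site (chr13:13437352-13437601, plus strand, GRCm38.p6) is printed because Nid1 had the smallest adjusted p of this class, with its GC box, 67 bases before the start, in capitals.
Nid1: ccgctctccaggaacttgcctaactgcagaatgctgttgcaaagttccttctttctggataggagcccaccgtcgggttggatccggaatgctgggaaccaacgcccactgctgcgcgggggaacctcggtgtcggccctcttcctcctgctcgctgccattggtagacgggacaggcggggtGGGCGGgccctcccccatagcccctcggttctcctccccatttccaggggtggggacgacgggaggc

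Proteoglycans are core proteins that carry long sugar chains, and they moved in both directions. Lum, lumican, a small leucine-rich proteoglycan of collagen fibrils, read 2.13, 1.54 and 1.70 in controls and 0.96, 0.39 and 1.06 in sEV livers. The groups did not overlap, sEV liver 2 was lowest, and Lum fell by 0.99 ± 0.23 (adjusted p = 0.0338 by limma). Hspg2, which encodes perlecan, the large heparan sulphate proteoglycan of basement membranes, read 1.93, 1.90 and 1.90 against 1.42, 1.49 and 1.52. The livers of each group were nearly alike, and Hspg2 fell by 0.43 ± 0.07 (adjusted p = 0.0172 by limma).

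Vcan, versican, a large chondroitin sulphate proteoglycan that binds hyaluronan, was the 1 matrix gene that rose. Vcan read -1.98, -2.06 and -1.96 in controls and -1.66, -1.59 and -1.61 in sEV livers. Every sEV liver was higher, and Vcan rose by 0.38 ± 0.08 (adjusted p = 0.0237 by limma). Its call ended under median scaling (adjusted p = 0.0606 by limma), with a trended, robust variance (0.0505), with no filter on dim probes (0.126) and with slide row as a block (0.160). It also ended without control 1 (adjusted p = 0.0624 by limma), control 2 (0.0691), control 3 (0.0685), sEV 2 (0.0727) or sEV 3 (0.0730). Its fold change stayed between 0.30 and 0.39 across all alternatives run.

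Lum did not pass when any 1 of the 6 livers was left out (adjusted p 0.0537 to 0.0939 by limma, fold changes -1.11 to -0.78). Hspg2 did not pass without control 1 (adjusted p = 0.0536 by limma), control 2 (0.0503), control 3 (0.0564) or sEV 2 (0.0509). With slide row as a block Lum (fold -0.83, adjusted p = 0.224 by limma) and Hspg2 (fold -0.49, 0.0769) did not pass either.

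The other 5 tested proteoglycans did not pass, and all had overlapping groups. Ogn, osteoglycin, was at -0.71 ± 0.34, with sEV livers 1 and 2 at -2.80 and -2.43 and sEV liver 3, at -1.52, inside the control range. Without sEV 3 the fold of Ogn was -1.08 and passed (adjusted p = 0.0448 by limma). Fmod, fibromodulin, which shapes collagen fibrils, was at -0.42 ± 0.21. Dcn, decorin, the best known collagen-coating proteoglycan, was at -0.22 ± 0.19 (adjusted p = 0.462 by limma). Prelp, a proline- and arginine-rich member of the same family, was at 0.15 ± 0.13. Bgn, biglycan, was at 0.02 ± 0.09 and turned to -0.03 under median scaling. Aspn, asporin, stood well above background on none of the arrays. By the order of genes in RefSeq, Lum lies beside Dcn, and Ogn lies beside Omd, with Aspn next to that. Omd, osteomodulin, was well above background in 3 of 3 sEV livers and in 0 of 3 controls, and was at least 1.72-fold higher (group means -4.96 in controls and -3.77 in sEV livers). It entered the test through the sEV arrays alone. Beside Vcan, Hapln1, the link protein that ties versican to hyaluronan, fell by 0.97 ± 0.20 (adjusted p = 0.0253 by limma), in the other direction from Vcan, and was well above background in 1 of 3 sEV livers.

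Lysyl oxidases oxidise lysines so that collagen and elastin chains can crosslink, and Pcolce helps to trim procollagen. Loxl2, lysyl oxidase-like 2, read 0.74, 0.28 and 0.17 in controls and -1.08, -1.30 and -0.60 in sEV livers. No sEV liver reached the control range, and Loxl2 fell by 1.39 ± 0.23 (adjusted p = 0.0138 by limma). Pcolce, the procollagen C-endopeptidase enhancer, read 3.23, 2.66 and 2.58 against 1.89, 1.79 and 2.08. All sEV livers were lower, and Pcolce fell by 0.90 ± 0.19 (adjusted p = 0.0261 by limma).

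Lox, lysyl oxidase itself, read -3.47, -3.85 and -4.14 in controls and -5.17, -6.44 and -4.67 in sEV livers. On this probe Lox was well above background in 3 of 3 controls and in 0 of 3 sEV livers. By the bound used for Eln it was at least 1.33-fold lower on that probe (group means -3.82 and -5.43). The sEV livers were widely spread, and Lox did not pass (adjusted p = 0.0577 by limma), though it did under median scaling (0.0429), a trended, robust variance (0.0421) and without sEV 3 (0.0467). Another Lox probe, too dim to be kept, went the other way (difference 1.26, sEV minus control). That probe was well above background in 1 of 3 sEV livers and in 0 of 3 controls, and read -6.83, -3.40 and -6.27 in sEV livers 1 to 3. With normexp correction the fold of Lox was -0.18. Loxl1, needed for elastic fibre upkeep, was at -0.72 ± 0.37 with overlapping groups, with sEV livers 1 and 2 at -2.64 and -2.66 and sEV liver 3 at -1.65. Loxl2 passed without any 1 liver and missed once slide row was blocked (adjusted p = 0.0868 by limma, fold -1.48). Pcolce did not pass without control 2 (adjusted p = 0.0610 by limma), sEV 1 (0.0576), sEV 2 (0.0740) or sEV 3 (0.0551), nor with slide row as a block (0.148, fold -0.93).

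**Figure D2:**
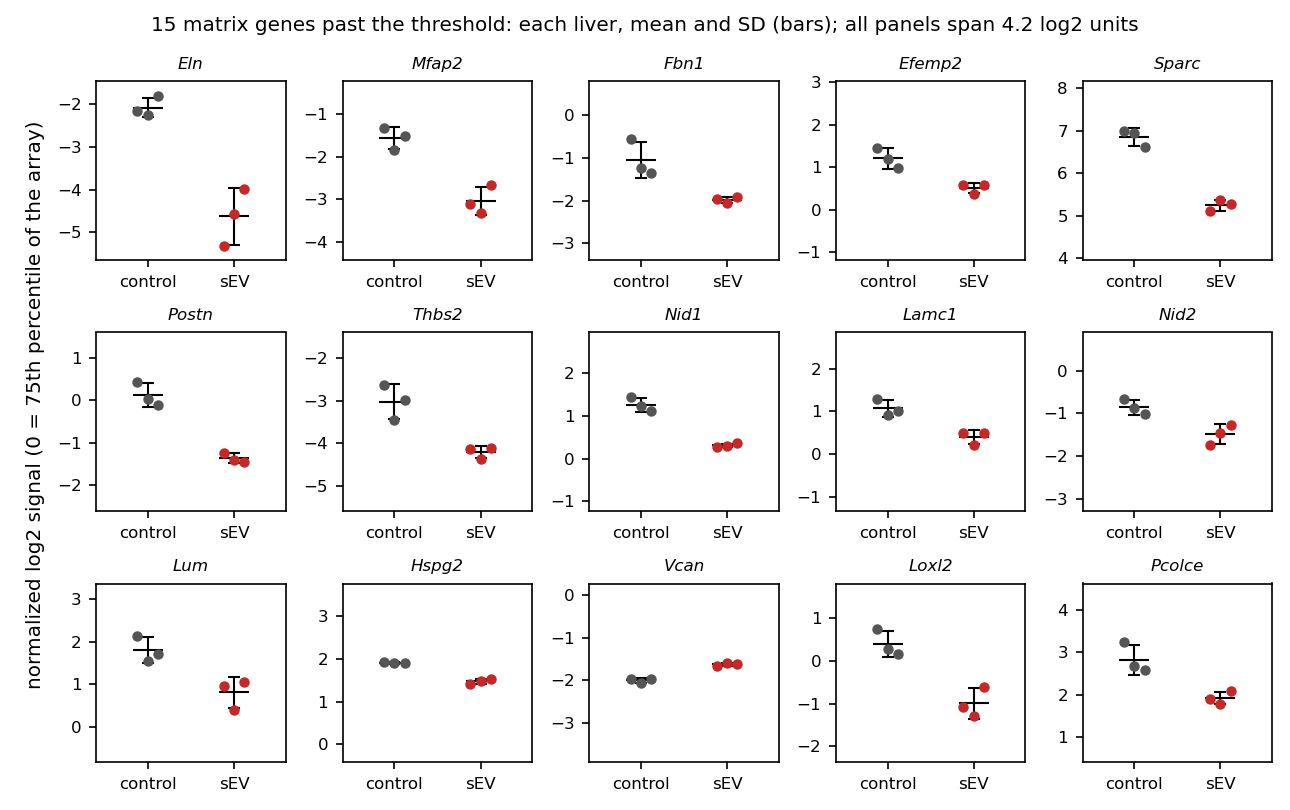
Normalised log2 signal of each liver for the 15 matrix genes past the threshold, in panels that all span 4.2 log2 units, with points for the 3 control and 3 sEV livers and bars for the mean and SD. The groups do not overlap in any panel, the gap is widest for Eln, and Vcan is the panel in which the sEV livers are higher.

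Probes of 1 gene were compared where more than 1 was well above background, since each reads a different stretch of the transcript. This was so for 17 genes, and for 14 of them all such probes had folds of 1 sign. Of the 8 genes with several such probes that passed, all had probes of 1 sign, and for 5 of them (Eln, Sparc, Postn, Fbn1 and Pcolce) every probe passed in a fit over 28760 probes. Sparc read -1.61 on both of its probes, and Postn -1.49, -1.33 and -1.17. The 2 probes of Eln start at transcript positions 3633 and 3058 and read -2.55 and -1.97 as measured, with 0 and 1 of the 3 sEV arrays well above background.

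Loxl2 and Matn2 had probes that differed, and the first 30 bases of those probes are printed to show that they read different places. The Loxl2 probe used above starts at transcript position 4792 (chr14:70095254-70095313, plus strand, mm9) and read a fold of -1.39. The other Loxl2 probe starts at position 2212 (chr14:70090017-70090076) and read -0.16 ± 0.10 (adjusted p = 0.321 by limma over probes), and averaging both gave -0.77, which passed. The brightest Matn2 probe was designed on a cDNA clone (chr15:34276754-34276813, plus strand, mm9) and read 0.38. The other pair of Matn2 probes, at chr15:34365734-34365793 and chr15:34365736-34365795, overlap each other almost fully and read -0.81 and -0.38, so that the mean over probes was -0.27. None of the 3 Matn2 probes passed.
Loxl2 probe at 4792: caccaaaggcttcgggactcctgtgtgtag
Loxl2 probe at 2212: tgacattgactgccagtggatagacatcac
Matn2 clone probe: tacctaagcttcattcactgtttagctgcg
Matn2 transcript probe: gggggaaggaatcctgaattctgagtttac
Matn2 overlapping probe: gggaaggaatcctgaattctgagtttacca

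Lamb1 and Fbln1 also had unequal probes. The Lamb1 probes read -0.68, -0.63 and -0.03, and the second of these passed (adjusted p = 0.0398 by limma over probes). The Fbln1 probes read -0.55, -0.87 and 0.14, and none passed.

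**Figure D3:**
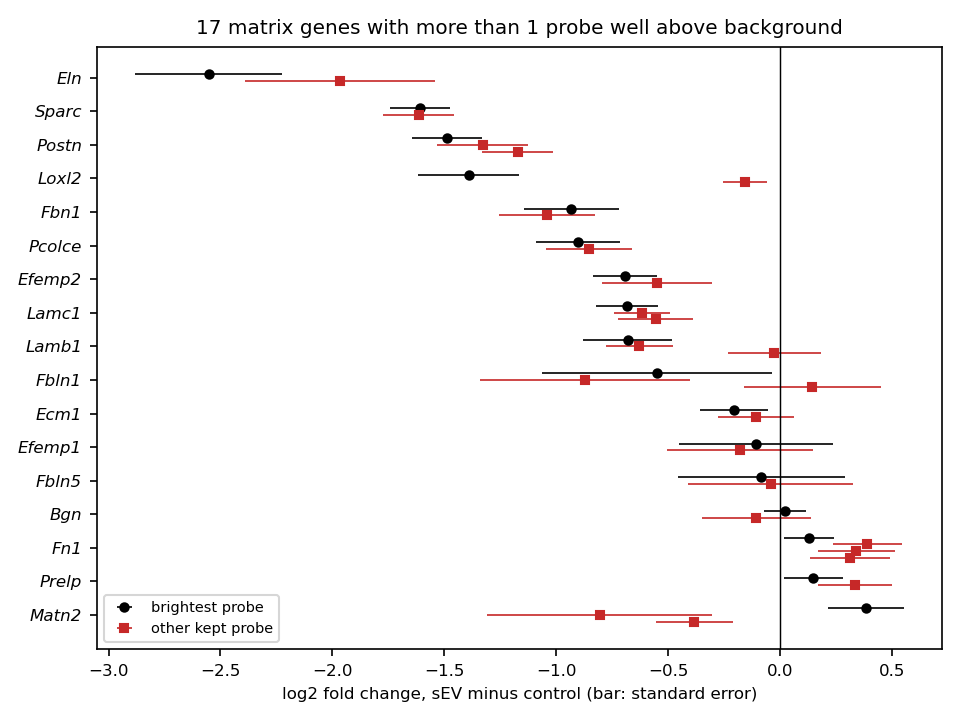
Log2 fold change (sEV minus control) and standard error of each probe well above background, for the 17 matrix genes with more than 1 such probe. Circles are the brightest probe of a gene and squares its other probes. Sparc and Postn probes lie together, whereas those of Loxl2 lie at -1.39 and -0.16 and those of Matn2 on both sides of zero.

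The livers differed in how many matrix genes were high or low. Set against the control mean of each gene, the median over the 42 genes was 0.22, -0.11 and -0.17 in control livers 1 to 3 and -0.50, -0.66 and -0.14 in sEV livers 1 to 3. Control liver 1 was the highest control for 32 of the 42 genes. Among sEV livers, liver 2 was the lowest for 24 genes and liver 3 the highest for 27. In sEV liver 3 the median of the laminins and nidogens was -0.51 and that of the crosslinking proteins -0.80, whereas those of the elastic fibre genes (-0.04), the adhesive genes (-0.04) and the proteoglycans (-0.02) were near the control mean.

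**Figure D4:**
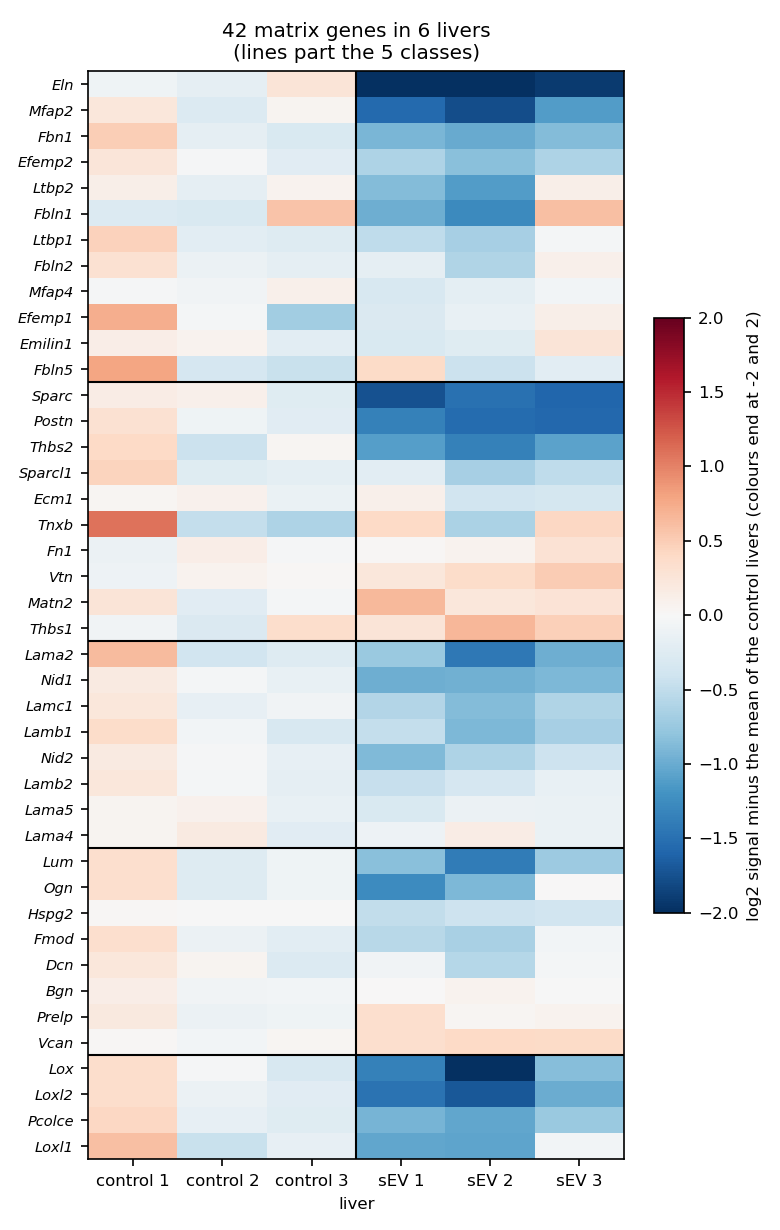
Each row is 1 of the 42 tested matrix genes, each column 1 liver, and the colour is the log2 signal minus the mean of the 3 control livers, with blue for lower and red for higher and colours ending at -2 and 2. Control liver 1 is mostly red among the controls, and sEV liver 3 is paler than sEV livers 1 and 2, with class medians between -0.02 and -0.80.

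Other matrix genes, taken from lists of the same pathways, were read beside these. Of 44 tested further matrix glycoproteins, 8 fell and 3 rose (25.0% called, beside 16.9% of all genes; median -0.20, or -0.14 with Frem1, dim in all sEV livers and with no bound above 1-fold, set to no change). Pxdn, a peroxidase that crosslinks type IV collagen, fell by 1.08 ± 0.12, Cyr61, a matricellular growth regulator, by 1.36 ± 0.20 and Tgfbi by 0.98 ± 0.15, while Bmper, a secreted BMP-binding protein, rose by 3.31 ± 0.43. Of 19 further proteoglycans 2 fell and 3 rose, Omd among them (26.3% called; median 0.28), with Sdc4, the cell surface heparan sulphate proteoglycan syndecan 4, up by 0.72 ± 0.12 and Hapln4 by 0.98 ± 0.14. Of 28 genes that build proteoglycan chains 3 fell and 2 rose (17.9% called, near the share of all genes; median 0.04), with Chpf down by 0.61 ± 0.09 and B3gat3 up by 0.49 ± 0.08. Of 7 further crosslinking genes none fell and 1 rose (14.3% called), Plod1, a lysyl hydroxylase, by 0.59 ± 0.10, and at an unadjusted p under 0.05 by limma the counts were also 0 lower and 1 higher.

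Of 20 matrix receptor genes 1 fell and 3 rose (20.0% called, near the 16.9% of all genes; median 0.05), with the integrin chains Itgb3 up by 0.68 ± 0.10 and Itga7 by 0.56 ± 0.11, Cd36, a thrombospondin receptor, up by 1.40 ± 0.35, and Stab1, a scavenger receptor that binds Sparc, down by 0.53 ± 0.13. Among 12 collagen genes that partner these proteins 6 fell, or 5 with Col5a2 left out, and none rose. Of all genes 16.9% were called, and 8.11% fell. The collagen median was -1.06, or -0.86 with Col5a2 at its bound. At an unadjusted p under 0.05 by limma 8 of the collagen genes were lower and 0 higher. Col3a1 fell by 1.89 ± 0.29, Col5a1 by 1.81 ± 0.28 and Col4a1 by 1.101 ± 0.18. Col5a2 was well above background in 3 of 3 controls and in 0 of 3 sEV livers, so that it was lower by at least 1.05-fold (group means -4.16 and -5.86).

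Markers of cells that make or border on matrix were read on the same arrays. Of 10 stellate cell markers 4 fell (among them Lrat at -1.098, Ngfr at -0.73 and Colec11 at -0.66), none rose (1 higher at an unadjusted p under 0.05 by limma) and 6 did not pass, among them Des and Pdgfrb at 0.29 and -0.16. That is 40.0% called, beside 16.9% of all genes. The summed signal of the 10, in multiples of the array's 75th percentile, was 44.0 to 57.6 in control and 36.7 to 41.6 in sEV livers. None of 9 portal fibroblast and mesothelium, 6 smooth muscle and 11 endothelial markers passed, with medians of -0.02, -0.02 and -0.09. At an unadjusted p under 0.05 by limma the counts were 1 of 9 (higher), 0 of 6 and 1 of 11 (lower). Their summed signals overlapped between groups, at 3.76 to 5.65 and 3.64 to 5.88, 12.9 to 15.6 and 12.2 to 18.2, and 49.2 to 69.6 and 49.6 to 60.8. The part of stellate cell number in the lower matrix genes was not tested.

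Markers of other cells were also read, and some of these lists differed between the groups. Of 10 Kupffer cell and macrophage markers 6 rose (summed signal 98.8 to 132 in control and 145 to 158 in sEV livers), of 10 neutrophil and platelet markers 5 rose (32.4 to 50.03 against 75.8 to 129), and of 8 hepatocyte markers 4 rose (2712 to 2892 against 3085 to 3507). The 5 are neutrophil markers, and the rest of that list, platelet markers included, did not pass. At an unadjusted p under 0.05 by limma 4 hepatocyte markers were higher and 1 lower. Of 6 erythroid markers 4 fell (31.1 to 40.4 against 11.5 to 32.6), and of 7 cholangiocyte markers 1 fell (5.63 to 9.42 against 5.33 to 5.79). The sums of both these lists overlapped between groups. Of all genes 8.82% rose and 8.11% fell. The cholangiocyte share called, 14.3%, is near the 16.9% of all genes. Gli1, Lmod1 and Cftr were among the listed markers not measured. The part of these cells in the matrix results was not tested.

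Across treatments of the data the calls were not equally firm. Of the 15 calls, 6 (Eln, Mfap2, Sparc, Postn, Nid1 and Loxl2) held without each liver in turn, that of Eln on sEV signals not above background. Once slide row was blocked, 4 of the 14 falls passed (Eln, Sparc, Postn and Nid1), against 2.45% of all genes, and the rise of Vcan did not pass. Of these Sparc, Postn and Nid1 belong to the 13 falls of genes measured in both groups, and Eln does not. Within slide row 1 alone, where sEV liver 1 was the single treated liver and was assumed to vary like the controls, Eln, Sparc and Mfap2 passed, against 2.23% of all genes that fell. With no filter on dim probes 801 genes passed, and 5 matrix genes fell (Eln, Sparc, Postn, Nid1 and Mfap2), against 1.32% of all genes. In this and both slide row treatments Eln was called on sEV signals not above background, so that its call adds no support to these counts. Median scaling gave 17 falls and no rise among the matrix genes, against 8.23% of all genes that fell, and among all genes passing it moved the share that rose from 52.1% to 40.6%.

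**Figure D5:**
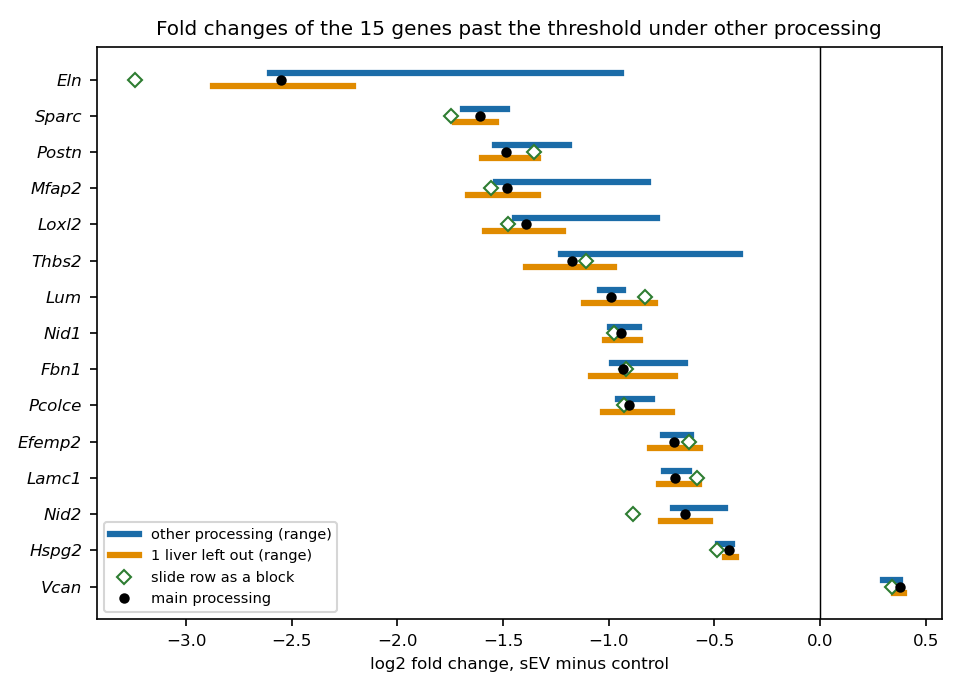
For the 15 matrix genes past the threshold, the log2 fold change (sEV minus control) under the main processing (black points), its range over other processing (blue bars), its range when 1 liver is left out (orange bars) and its value with slide row as a block (green diamonds), with Eln at measured folds. Each diamond is the fold of sEV liver 1 alone against the control mean. No bar or diamond crosses zero, and the blue bars are long for Eln, Mfap2, Loxl2 and Thbs2, reaching -0.94, -0.81, -0.77 and -0.38.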

How the data were processed

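Liver RNA of 3 control and 3 sEV mice was labelled with Cy3 for 1-colour arrays, 1 liver each, per the labels' protocols. The scanner output, deposited as processed intensity, comes from Agilent Feature Extraction (version 10.7.1.1, as given in the submitters' processing notes), with background subtracted and no scaling between arrays, per the file headers. The authors' deposited table of log2 values was used as an alternative. Probe coordinates are mm9, per the file headers.

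Flagged outlier spots (91 to 171 per array) and controls were dropped, and repeat spots of a probe averaged. Each value is the log2 of the processed signal after subtraction of log2 of that array's 75th percentile. A probe was kept if well above background on 3 or more arrays, and each gene was read from its brightest kept probe. Each of the 46 genes had a probe, kept or not, whose accession matched RefSeq under the same symbol. The probes read for Matn2, Fbln1, Fbln5 and Lamc1 carried accessions from outside RefSeq, so that for these genes the match rests on their other probes. The comparison used limma 3.58.1 under R 4.3.3 (lmFit, eBayes), without covariates, Benjamini-Hochberg adjusted over 19446 genes, threshold 0.05.

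Tested on simulated data for the sEV and control comparison (19446 genes, 5 runs, 200 changed genes each), the fit called 69.0% of genes changed 2-fold, 92.4% at 4-fold and 0.0447% of unchanged genes. The simulated noise was independent, with no slide row effect and no background floor. Far fewer genes were changed than the 3293 called in the data, so these shares hold for the simulated setting only.

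The members and lists were chosen with earlier results of these data known. All members are named by class, with full values for those past the threshold, dim in 1 whole group or not overlapping, and up to 4 genes of each further list by size of the moderated t. The members with groups that did not overlap (Vtn, Lamb1 and Lama2), other non-members beside a member in RefSeq order (Omd and Hapln1) and the stellate markers Des and Pdgfrb were chosen after their values were seen. Some marker genes are not reported here by name. Numbers shared between control and sEV labels were not taken as pairs. Deviations correlated at 0.02, 0.16 and 0.02 for shared numbers and at -0.099 to 0.077 for unlike numbers. With 3 livers a group these values cannot exclude pairing. Alternatives were genes dim throughout a group left out or at their bound (added after the data were seen), other background corrections, scalings, filters, probe rules, variance models, blocks, the value table and each liver left out. Figures were drawn with matplotlib 3.10.9.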

Additional observations from a re-analysis of the deposited data

How the results depend on the processing

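The main processing called 3293 genes, and 14 matrix genes fell and 1 rose. Counts that moved by over 1.5 times were, for all genes, 801 with no filter on dim probes, 721 with slide row as a block, 608 in row 1 only and 2176 with the replicate block. For matrix genes that fell they were 5 with no filter, 4 with slide row as a block and 3 in row 1 only. For matrix genes that rose they were 2 with normexp correction, with probes well above background on all 6 arrays and with array weights, and 0 with median scaling, no filter, both slide row treatments and the replicate block. Leaving out 1 liver gave 1329 to 2761 genes, 6 (without sEV 2) to 12 matrix genes that fell, and 0 to 2 that rose. The replicate numbers did not pair the samples. With the replicate number as a block 11 matrix genes fell and 0 rose, and 10 of the 15 calls were kept.

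No matrix gene past the threshold changed sign under any alternative run. Those that did had not passed. Ecm1 was at 0.10 for both slide row treatments (a block, or row 1 only), which give the same folds. Fn1 was at -0.10 under quantile normalization and in the authors' table. Matn2 was at -0.27 as the mean over probes. Efemp1 was at 0.21 with array weights. Emilin1 was at 0.019 with normexp correction and 0.0027 with array weights. Fbln5 was at 0.043 with array weights and 0.39 for both slide row treatments. Lama4 was at 0.046 with normexp and 0.091 with array weights. Bgn was at -0.031 under median scaling and -0.042 as the mean over probes. With 1 liver left out, the folds ran from -0.25 to 0.60 for Tnxb, -0.46 to 0.25 for Efemp1, -0.28 to 0.0046 for Emilin1, -0.32 to 0.31 for Fbln5, -0.14 to 0.061 for Lama4 and -0.017 to 0.091 for Bgn. The median of the adhesive class was 0.059 with probes well above background on all 6 arrays, 0.063 for both slide row treatments, and -0.26 to 0.016 with 1 liver left out. The cause of these changes was not tested. Single matrix genes under single alternatives gave 670 values with the same call and direction, 78 that lost the call, 17 that gained it and 30 that changed sign. With genes dim on every array of a group left out, a treatment added after the data were seen, 13 matrix genes fell and 1 rose. Dim probes limit Eln, Lox and Thbs2, whose sEV signals were at or near background.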
